A study of Mus musculus with 6 samples.

Results

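Long intergenic noncoding RNAs (lincRNAs) are transcripts with no known protein product that lie between protein-coding genes. Some act on neighbouring genes, some bind proteins or microRNAs, some are spliced around small RNAs that are then released, and most have no known role. The lincRNAs described here were chosen by their level: they are the rows of the deposited count table with the biotype lincRNA and a raw count of at least 200 in 3 or more of the 6 libraries, without the names starting with Snhg and without Gas5, Neat1, Malat1, Meg3 and H19. This gave 122 of the 55487 gene rows. Of 5629 lincRNA rows, 1178 had a count in any library, 128 reached the minimum, and 6 of those were left out by name (Malat1, Neat1, Snhg10, Snhg12, Snhg15 and Snhg20).

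RNA-seq was done in αTC1, a mouse glucagonoma line that serves as a model of the glucagon-producing α cell of the pancreatic islet. 3 libraries came from cells treated with G786-1089, a small molecule directed at the Tudor domain of the splicing factor SMNDC1, and 3 from cells given its solvent DMSO, with no altered allele named for either group. A tumour-derived line is a limited model of α cells. The labels used here give no dose and no time for these samples, and the study says that each replicate's cells were divided between the treatments from 1 batch and handled together, without saying whether the replicates were separate cultures. The p-values thus measure only the spread between these samples, which may be technical. The comparison asks how the RNA of a cell line responds to an inhibitor of a splicing factor, here for its noncoding transcripts. The study calls the inhibitor of its RNA-seq non-selective and reports that it also affected SMN, a related Tudor domain protein. Through which target a change came was not tested.

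The libraries held 70150880 to 94747943 counts with G786-1089 and 59070705 to 69480568 with DMSO, so a fixed raw minimum was easier to reach with G786-1089, and on counts scaled to the lowest total 111 of the 122 lincRNAs still qualified. Of the α cell markers, Gcg (glucagon) lay at 17086 to 19365 FPKM (a level corrected for gene length and library size) with DMSO and at 2401 to 3024 with G786-1089, Pcsk2 and Irx2 were high in all libraries, and Gc was listed at 0. Ins1, Sst and Ppy, hormones of the other islet cells, were listed at 0 in every library. The β cell markers Ins2 and Iapp were not at 0 throughout, reaching up to 0.983 and 1.88 FPKM. Of 22 markers of other islet, exocrine, mesenchymal, endothelial and immune cells, 10 were at 0 throughout and 3 were above 0 in every library. These were Nkx6-1 at 1.37 to 4.28 FPKM, Cela1 at 13.6 to 21.8 FPKM with G786-1089 and 4.46 to 10.6 with DMSO, and Cd68 at 5.85 to 13.8 and 4.23 to 6.25 FPKM. The 22 summed to 22.3 to 37.6 FPKM with G786-1089 and 14.4 to 20.6 with DMSO, and their part in the results was not tested. The share of counts from mitochondrial genes was 2.27% to 2.76% with DMSO and 2.96% to 3.57% with G786-1089, and its part in the results below was not tested. In bulk samples, fewer cells of a type and less RNA per cell cannot be told apart.

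The name "outside snoRNA hosts" did not hold for every lincRNA. In the GENCODE vM21 annotation, 2 of the 122 carry a small nucleolar RNA (snoRNA) on their own strand inside the gene. 2700038G22Rik (chr5:23850597-23855038, GRCm38) holds Snord93 at chr5:23852210-23852280, and Epb41l4aos holds the snoRNA Gm23639. 3 lincRNAs contain microRNA precursors, namely Ftx with Mir374b and Mir421, 5330434G04Rik with Mir325, and A230057D06Rik with the Mir344 group of the Prader-Willi region. The set is therefore called here by its rule, as well-expressed lincRNAs. The sequence of Snord93 is shown because it sets 2700038G22Rik apart, with capitals at a GATGA and the last CTGA, the letters of the C and D boxes of this snoRNA class.
Snord93: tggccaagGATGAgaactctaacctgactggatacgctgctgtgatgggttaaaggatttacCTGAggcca

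Mature microRNAs held by Ftx and by the Mir344 group are shown next with the seed, bases 2 to 8, in capitals, because a change of the host is also a change of the transcript that encodes them. The sequences are those of RefSeq (GRCm38.p6).
mmu-miR-374b-5p: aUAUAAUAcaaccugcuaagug
mmu-miR-374b-3p: gGUUGUAUuaucauuguccgag
mmu-miR-421-5p: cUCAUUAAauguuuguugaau
mmu-miR-344-3p: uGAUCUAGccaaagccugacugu
mmu-miR-344c-3p: uGAUCUAGucaaagccugacagu
mmu-miR-344d-3p: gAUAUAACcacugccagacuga
mmu-miR-344e-3p: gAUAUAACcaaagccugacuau
mmu-miR-344h-3p: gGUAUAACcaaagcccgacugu
mmu-miR-344b-3p: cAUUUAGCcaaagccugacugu
mmu-miR-344-5p: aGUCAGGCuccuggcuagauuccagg
mmu-miR-344b-5p: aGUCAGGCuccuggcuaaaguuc
mmu-miR-344c-5p: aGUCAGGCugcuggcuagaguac
mmu-miR-344d-3-5p: aGUCAGGCuagugguuauacucc
mmu-miR-344e-5p: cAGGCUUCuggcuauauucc
mmu-miR-344h-5p: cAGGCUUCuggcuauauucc
Within the Mir344 group the seed GAUCUAG was shared by miR-344-3p and miR-344c-3p and the seed AUAUAAC by miR-344d-3p and miR-344e-3p. On the 5p arm the seed GUCAGGC was shared by miR-344-5p, miR-344b-5p, miR-344c-5p and miR-344d-3-5p. The seed AGGCUUC was shared by miR-344e-5p and miR-344h-5p, and miR-344h comes from 2 precursors. The libraries measured the host transcripts, not the mature microRNAs.

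The 122 lincRNAs were mostly spliced and mostly low. 100 had 2 or more exon blocks and 22 had 1, with a median exon length of 2132 bp and a range of 168 bp (Bc1) to 93147 bp (AC160336.1). 55 carried a Gm number as their only name, 51 a RIKEN clone name, and 16 another name. The mean FPKM over the 6 libraries had a median of 4.01, with 29 lincRNAs above 10 FPKM and 10 below 1 FPKM. Together they took 0.25% to 0.259% of all counts with DMSO and 0.191% to 0.202% with G786-1089, and the groups did not overlap. All lincRNA rows of the table, those left out by name included, took 0.36% to 0.383% with DMSO and 0.383% to 0.447% with G786-1089, so this lower share was not seen over lincRNA rows as a whole. The 5 with the most counts made up 35.9% of these counts.

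The highest level belonged to Gm10076, at 528 FPKM on average, followed by Gm13373 (317 FPKM), Platr26 (71.7 FPKM), 3930402G23Rik (60.3 FPKM) and Gm49980 (47.5 FPKM). Each of these 5 was lower with G786-1089, as the plot of level against change shows. Gm10076 (chr14:105681828-105682211) matched Rpl41, the gene of a ribosomal protein, over 99.7% of its transcript at 95% identity or more, so its counts may include reads of that gene and are uncertain.

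**Figure D1:**
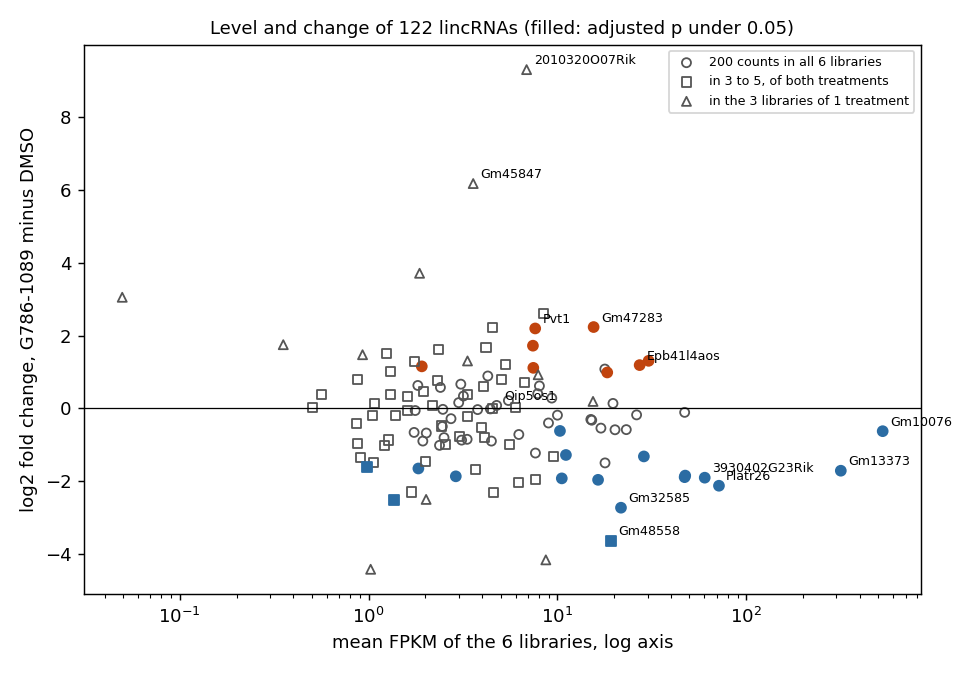
Level and change of the 122 lincRNAs. The x axis gives the mean FPKM of the 6 libraries on a log axis, the y axis the log2 fold change (G786-1089 minus DMSO). Circles reached 200 counts in all 6 libraries, squares in 3 to 5 libraries of both treatments, triangles in the 3 libraries of 1 treatment, and filled symbols passed the test (red higher, blue lower). The 5 lincRNAs with the highest level all lie below 0.

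For the tests, lincRNAs were divided by how they met the minimum. 61 reached 200 counts in all 6 libraries, so their inclusion did not require a difference, although a gene that fell to near absence could not be among them. 49 reached it in 3 to 5 libraries of both treatments, and 12 only in the 3 libraries of 1 treatment. The last class was selected on the contrast itself and is described with no test.

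Among the 61 lincRNAs with 200 counts in all libraries, 8 were higher and 14 lower with G786-1089 at an edgeR quasi-likelihood p adjusted over all 15082 genes tested of under 0.05, and 39 did not pass. This was 13.1% higher and 22.95% lower. The background was 6.98% higher and 7.8% lower over all genes tested. Over the 8223 genes of any biotype with 200 counts in all 6 libraries, which met the same minimum but had a lower median SE (0.23 against 0.32 on the log2 scale), it was 10.4% higher and 13% lower. The median log2 fold change was -0.32 over the 61 lincRNAs, with 40 below and 21 above 0, against -0.01 over those 8223 genes. With library size alone as the scaling, the median of all genes moved from 0.04 to 0.25 and that of the 61 lincRNAs to -0.12. Under the filter the study used (adjusted p of at most 0.1 and a change of at least 1 on the log2 scale), which called 10.4% of all tested genes in either direction, 8 of the 61 were again higher and 14 lower, and 19 of the 22 calls were shared.

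The calls in the 2 directions were not equally stable. The 14 lower calls became 10 to 13 when any 1 library was left out. The 8 higher calls became 4 without G786-1089 replicate A or DMSO replicate C, 2 without G786-1089 replicate B, G786-1089 replicate C or DMSO replicate A, and 1 without DMSO replicate B. Such fits also called fewer genes of any kind, 1253 to 1556 in place of 2230. Of the 8 higher lincRNAs, Gm47283 passed in all 6 of these fits, and 2810429I04Rik and Epb41l4aos passed in none. The columns carry the letters A to C, which the sources used here do not tie to the replicate numbers. With the letter as a block, that is with libraries of 1 letter taken as a pair, 3 were higher (Gm47283, Gm11884 and Erdr1) and 11 lower. This fit, too, called fewer genes of any kind, 1232 in place of 2230.

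**Figure D2:**
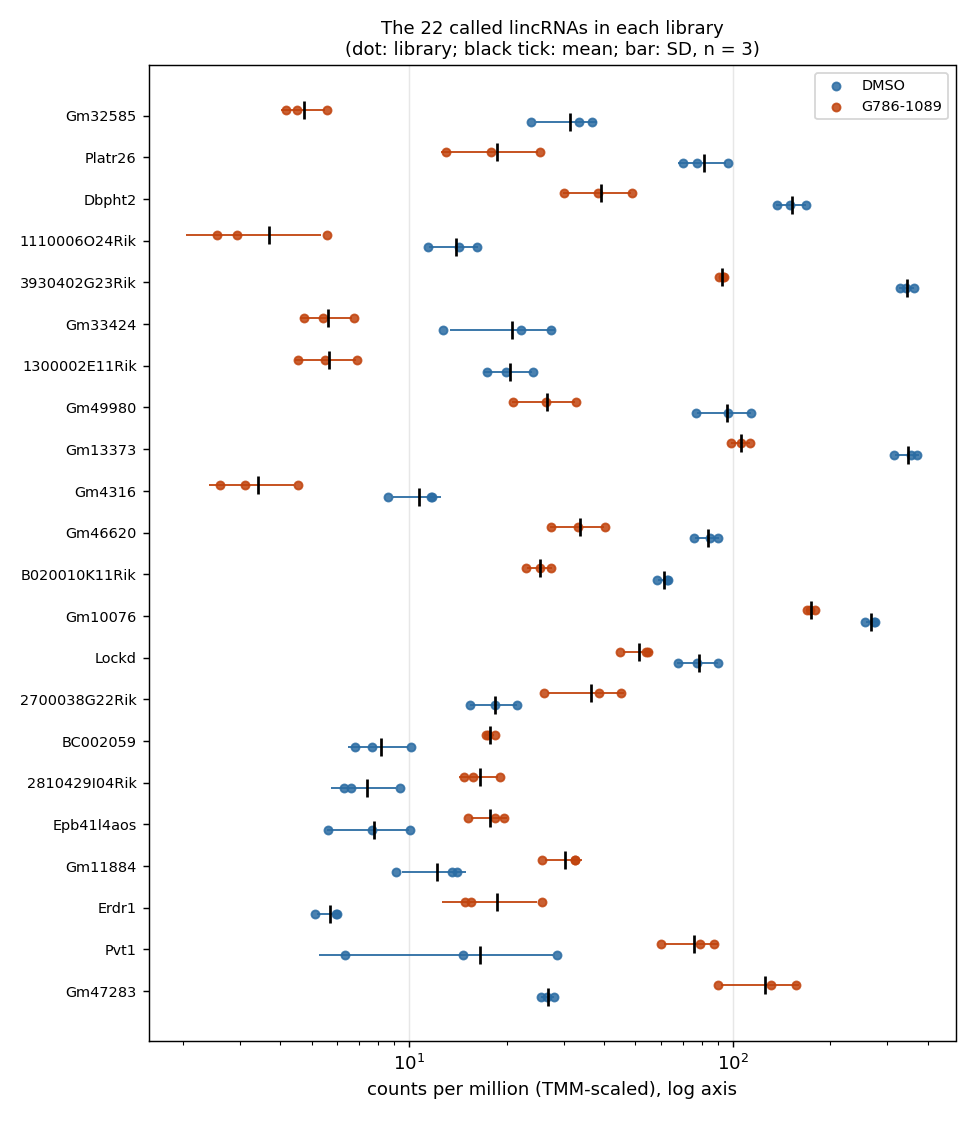
The 22 lincRNAs with 200 counts in all libraries that passed the test. Each dot is 1 library, in TMM-scaled CPM on a log axis, for DMSO (blue) and G786-1089 (red). The black tick is the mean and the bar the SD (n = 3). In each of the 22 the 3 dots of a treatment lie apart from the 3 of the other, with a narrow gap for 2700038G22Rik (21.5 against 26.05 CPM). The 22 were picked by their p in these same libraries, so the gaps are no further support.

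The steepest fall in this class was that of Gm32585 (chr5:125238314-125272815, 4 exon blocks, beside Scarb1, a lipoprotein receptor). Its level in CPM (counts relative to the library total after TMM scaling, which corrects for composition) was 4.17, 5.57 and 4.52 with G786-1089 and 33.5, 23.9 and 36.7 with DMSO. The lowest DMSO library was thus several fold above the highest treated one. The log2 fold change was -2.72 ± 0.27 (SE, n = 3 per group, edgeR adjusted p = 0.0015), a 6.59-fold lower level, while Scarb1 itself was at 0.48 ± 0.26 (edgeR adjusted p = 0.281).

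Platr26 belongs to a series of transcripts named for their association with pluripotency and lies at chr2:71719417-71730966. Its CPM values were 25.4, 13.0 and 17.9 with G786-1089 and 70.1, 96.4 and 77.7 with DMSO. All treated libraries were below all controls, at -2.12 ± 0.28 on the log2 scale (SE, edgeR adjusted p = 0.0045). The nearest protein-coding gene, Itga6, which encodes a laminin-binding integrin and lies 14650 bp away on the same strand, changed by -4.17 ± 1.06 (edgeR adjusted p = 0.0432).

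3930402G23Rik (chr8:10924427-10928696) had the smallest replicate spread of the steep decreases. It was at 90.4, 93.6 and 93.0 CPM with G786-1089 and at 327, 342 and 363 CPM with DMSO. The fall was 3.72-fold, or -1.90 ± 0.08 on the log2 scale (SE, edgeR adjusted p = 0.000106). It sits in a group of 4 lincRNAs on chromosome 8, each less than 500 kb from the next, beside Irs2, an adaptor of the insulin receptor, and Myo16. The other three were 5330413D20Rik at -1.49 ± 0.44 (SE, edgeR adjusted p = 0.0722), Gm44785 at -0.78 ± 0.56 (edgeR adjusted p = 0.433) and Gm44786, which reached the minimum with DMSO only and stood at -2.49 ± 0.59. Irs2, 55985 bp from 3930402G23Rik, was at -0.58 ± 0.12 (edgeR adjusted p = 0.0235).

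Gm13373 (chr2:28315016-28324050), the lincRNA with the second highest level, was at 106, 98.9 and 113 CPM with G786-1089 and at 353, 370.5 and 314 CPM with DMSO. It fell by 1.71 ± 0.10 on the log2 scale (SE, edgeR adjusted p = 0.000252). The nearest protein-coding gene, Olfm1, which encodes a secreted neuronal glycoprotein, lies 84280 bp away on the other strand and was at -0.82 ± 0.18 (edgeR adjusted p = 0.0246). Gm10076 changed less, from 275, 273 and 255 CPM to 180, 173 and 169 CPM (-0.62 ± 0.08, SE, edgeR adjusted p = 0.00386). Its groups did not overlap although the change was only 1.54-fold.

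Dbpht2 (chr12:74296668-74302008, 1 exon block of 5341 bp) stood at 38.4, 30.2 and 48.8 CPM with G786-1089 and at 150.3, 137 and 168 CPM with DMSO, a log2 fold change of -1.96 ± 0.20 (SE, edgeR adjusted p = 0.00167). 1110006O24Rik, Gm33424 and 1300002E11Rik, all lower than Dbpht2 in CPM, were at -1.92 ± 0.40, -1.88 ± 0.36 and -1.86 ± 0.28 (SE). Of these, 1300002E11Rik passed in all 6 fits that leave out a library, Gm33424 in 2 and 1110006O24Rik in 1, the highest adjusted p being 0.0643 without DMSO replicate A for Gm33424 and 0.0787 without DMSO replicate B for 1110006O24Rik. 1300002E11Rik overlaps Map3k13 on the same strand and shared 5.39% of its exon bases with it. With the column letter of the libraries as a block, 1110006O24Rik had an adjusted p of 0.0564.

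3 further lower lincRNAs each had near-identical sequence in the same gene, and whether they matched the same stretch of it was not compared. Gm46620 (chr18:82694287-82701336) matched the gene Gm42427 over 98.9% of its transcript, Gm49980 (chr18:30267249-30272133) over 59.1% and Gm4316 (chr8:123165255-123178765) over 50.1%. Their log2 fold changes were -1.31 ± 0.18, -1.84 ± 0.23 and -1.65 ± 0.37 (SE), and their counts cannot be treated as separate evidence, since reads of 1 locus may have been counted at another. Gm4316 passed in 1 of the 6 fits that leave out a library, with an adjusted p of 0.0948 without DMSO replicate A, and had one of 0.0835 with the letter block. B020010K11Rik (-1.27 ± 0.15) shared 37.9% of its exon bases with Gm17383 on the other strand and matched Tuba1b, a tubulin gene, over 44.3% of its transcript, so its counts are uncertain. Leaving out all lincRNAs with such a copy over at least 50% of the transcript left 6 higher and 10 lower, a choice made after the data were seen.

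Of the higher lincRNAs, the steepest was Gm47283, followed by Pvt1 and Erdr1, and Gm47283 and Erdr1 share sequence with each other. Gm47283 lies on chromosome Y and Erdr1 (chrX:170009659-170019281) near the end of chromosome X. The transcript of Erdr1 matched Gm47283 over 100% of its length, and GENCODE vM21 lists both as protein-coding while the deposited table has them as lincRNA. Gm47283 was at 89.8, 131 and 157 CPM with G786-1089 and at 25.5, 28.1 and 26.8 CPM with DMSO, a log2 fold change of 2.23 ± 0.22 (SE, edgeR adjusted p = 0.00144). Erdr1 was at 15.6, 14.9 and 25.7 CPM against 5.13, 5.94 and 5.98 CPM, or 1.72 ± 0.31 (SE, edgeR adjusted p = 0.0141, and 0.0518 to 0.0586 without any 1 of the DMSO replicates). The controls were tight for both, while the treated libraries spread widely. Since reads of the pair can be exchanged, they count as 1 signal.

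Pvt1 (chr15:62037986-62378096, 21 exon blocks), a lincRNA next to the oncogene Myc and known as a target of p53, was at 79.2, 87.7 and 59.9 CPM with G786-1089. With DMSO it was at 6.35, 14.6 and 28.6 CPM. The treated libraries were all above the controls, but the controls differed among themselves by a larger factor than those of any other called lincRNA in the plot by library. The log2 fold change was 2.19 ± 0.52 (SE, edgeR adjusted p = 0.0347), with an adjusted p of 0.116 and a log2 fold change between 1.80 and 2.84 in the fits without 1 library, the highest p coming without DMSO replicate B, and with one of 0.0698 with the letter block. Myc, 47612 bp away, was at 3.15 ± 1.59 (edgeR adjusted p = 0.258).

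Both lincRNAs that hold a snoRNA were among the 8 higher ones. 2700038G22Rik, the host of Snord93, was at 26.05, 45.0 and 38.7 CPM with G786-1089 and at 21.5, 18.5 and 15.4 CPM with DMSO, or 0.99 ± 0.26 on the log2 scale (SE, edgeR adjusted p = 0.0493). Epb41l4aos (chr18:33794892-33795986) was at 18.4, 15.2 and 19.7 CPM against 10.1, 5.62 and 7.71 CPM, or 1.19 ± 0.30 (SE, edgeR adjusted p = 0.0437). Both p-values lay just under the threshold, and without DMSO replicate C they were 0.147 and 0.120, and with the letter block 0.126 and 0.0809. The host genes left out by name were at 3.35 ± 0.49 (Snhg12), 3.17 ± 0.24 (Snhg15), 0.90 ± 0.50 (Snhg10) and 0.10 ± 0.15 (Snhg20) on the same log2 scale.

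The remaining higher lincRNAs were Gm11884 (1.31 ± 0.25), 2810429I04Rik (1.15 ± 0.28) and BC002059 (1.11 ± 0.26). The highest edgeR adjusted p without 1 library was 0.0582 for Gm11884 (G786-1089 replicate C) and 0.118 for 2810429I04Rik (DMSO replicate C), which had one of 0.0813 with the letter block. BC002059 was at 18.4, 17.6 and 17.3 CPM with G786-1089 and at 7.69, 6.80 and 10.1 CPM with DMSO (SE, edgeR adjusted p = 0.0324, 0.102 without DMSO replicate A, and 0.0929 with the letter block). It lies at chr17:16951539-16974157 in a stretch with Gm5165 (0.62 ± 0.29, edgeR adjusted p = 0.231) and Gm6712 (1.08 ± 0.32, edgeR adjusted p = 0.0694) and with the zinc finger genes Zfp97 (1.11 ± 0.26, edgeR adjusted p = 0.0323) and Zfp960 (1.10 ± 0.37, edgeR adjusted p = 0.0994). Gm6712 matched Gm5165 over 99.2% of its transcript, so the values of this pair overlap in source.

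The promoters of 2 lower and 2 higher lincRNAs are shown so that the motif counts that follow can be seen in sequence. They were picked after the counts were known, and for each the RefSeq start lay within 29 bp of the Ensembl start. Each runs from 250 bases before to 50 after the start, 5′ to 3′ on the gene's strand in GRCm38.p6, with capitals at matches on either strand. The 7 motifs searched were ACGTG (the core bound by HIF and other factors), CACGTG (the E-box, which contains the former), TATAAA (the TATA box), CCGGAAG (ETS factors), TGACTCA (AP-1), TGACGTCA (the cyclic AMP response element) and GGGCGG (Sp1). Platr26 and 1300002E11Rik were lower, 2700038G22Rik and BC002059 higher.
Platr26, chr2:71719167-71719466, plus strand: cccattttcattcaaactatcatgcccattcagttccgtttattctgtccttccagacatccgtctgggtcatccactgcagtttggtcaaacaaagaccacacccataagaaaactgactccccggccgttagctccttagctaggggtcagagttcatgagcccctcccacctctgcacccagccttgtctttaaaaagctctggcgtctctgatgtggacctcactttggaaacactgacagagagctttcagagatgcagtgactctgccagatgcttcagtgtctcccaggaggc
1300002E11Rik, chr16:21794097-21794396, plus strand: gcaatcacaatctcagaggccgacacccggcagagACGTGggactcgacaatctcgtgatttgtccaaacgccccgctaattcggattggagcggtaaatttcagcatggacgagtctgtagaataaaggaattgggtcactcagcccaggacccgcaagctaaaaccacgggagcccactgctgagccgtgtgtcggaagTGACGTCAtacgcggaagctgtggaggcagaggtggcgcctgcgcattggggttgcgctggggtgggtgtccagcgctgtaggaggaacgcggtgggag
2700038G22Rik, chr5:23850347-23850646, plus strand: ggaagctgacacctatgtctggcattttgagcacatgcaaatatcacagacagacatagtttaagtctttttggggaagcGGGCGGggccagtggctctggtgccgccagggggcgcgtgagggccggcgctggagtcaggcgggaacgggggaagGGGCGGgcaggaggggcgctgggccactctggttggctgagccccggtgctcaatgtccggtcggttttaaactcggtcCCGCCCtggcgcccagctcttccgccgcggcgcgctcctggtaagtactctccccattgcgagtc
BC002059, chr17:16951286-16951585, plus strand: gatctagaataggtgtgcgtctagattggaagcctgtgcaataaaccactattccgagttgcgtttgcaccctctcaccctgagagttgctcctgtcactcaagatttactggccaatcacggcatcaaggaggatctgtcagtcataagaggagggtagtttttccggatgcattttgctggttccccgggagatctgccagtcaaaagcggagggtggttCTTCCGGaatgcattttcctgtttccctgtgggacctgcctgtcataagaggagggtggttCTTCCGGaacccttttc
The window of Platr26 held none of the 7 motifs. That of 1300002E11Rik held ACGTG, found in 19.6% of all promoters and 25.8% of those of the lincRNAs, and the cyclic AMP response element, which 1.79% of all 32851 RefSeq promoters and 4.49% of the 89 promoters of 76 matched lincRNAs held. 2700038G22Rik held GGGCGG, found in 35.7% of all promoters and 39.3% of those of the lincRNAs. BC002059 held CCGGAAG on the other strand, found in 8.86% of all and 19.1% of the lincRNA promoters. The set of all promoters includes genes silent in these cells, and 4 promoters of higher and 11 of lower lincRNAs were too few to compare. A match is a description of letters and not a binding site.

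The known lincRNAs among the 122 did not move as a group. Bc1, Epb41l4aos, Ftx, Lockd, Oip5os1, Paupar, Platr26, Pvt1 and 2900097C17Rik were members of a list of lincRNAs with described roles. Bc1 and Ftx reached the minimum under 1 treatment only and were not tested. Of the others, Epb41l4aos, Pvt1, Platr26 and Lockd passed the test, and Oip5os1, Paupar and 2900097C17Rik did not. Over all genes tested, 14.8% passed in either direction. 2900097C17Rik (chr2:156388065-156392979), the mouse Norad locus, whose RNA binds Pumilio proteins and is linked to genome stability, was at 31.1, 27.2 and 17.7 CPM with G786-1089 and at 46.9, 43.6 and 34.3 CPM with DMSO. The groups did not overlap, but the log2 fold change of -0.71 ± 0.26 did not pass (SE, edgeR adjusted p = 0.122). Its transcript of 4915 bases held the Pumilio motif TGTANATA at 11 places, or 2.24 per kb, a density reached by 2 (itself included) of 3011 lincRNA genes with a longest transcript of at least 1000 bases, 2292 of which had no match. Gm7292, which matched it over 100% of its own transcript, was at -0.80 ± 0.42 (edgeR adjusted p = 0.281), and reads of the 2 may be exchanged.

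Oip5os1 (chr2:119594297-119607502), also called Cyrano, is known for a site that pairs extensively with miR-7 and leads to its decay. The microRNA and the site, at base 2952 of the longer transcript, are shown with the seed and its match in capitals, where a run of 13 further bases pairs with the rest of the microRNA.
mmu-miR-7a-5p: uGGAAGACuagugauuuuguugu
Oip5os1 site: agaacaacaaaatcaccaatGTCTTCCa
Oip5os1 was at 38.1, 30.5 and 64.6 CPM with G786-1089 and at 31.4, 55.5 and 38.8 CPM with DMSO. The groups overlapped fully and the log2 fold change was 0.08 ± 0.34 (SE, edgeR adjusted p = 0.905), turning sign without G786-1089 replicate C (-0.29) or without DMSO replicate A (-0.09).

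Lockd (chr6:134929092-134956798), downstream of the cell cycle inhibitor Cdkn1b, was at 54.6, 54.0 and 44.9 CPM with G786-1089 and at 77.7, 90.1 and 67.5 CPM with DMSO. The change was -0.62 ± 0.16 (SE, edgeR adjusted p = 0.0475), passed in none of the fits without 1 library (adjusted p up to 0.132, without DMSO replicate B) nor with the letter block (0.0695), and Cdkn1b was at -0.40 ± 0.23 (edgeR adjusted p = 0.317). Paupar, which lies upstream of Pax6, a transcription factor of islet cells, was at 4.43, 3.77 and 7.24 CPM against 3.77, 11.3 and 13.6 CPM. Its groups overlapped (-0.89 ± 0.55, SE, edgeR adjusted p = 0.351), and Pax6 was at -0.43 ± 0.25 (edgeR adjusted p = 0.315). A230057D06Rik, the transcript across the Mir344 group, was at 0.03 ± 0.51 (edgeR adjusted p = 0.983).

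The 4 lincRNAs nearest to no change among those measured with an SE under 0.25 were 2010320M18Rik (-0.18 ± 0.19), Gm2694 (-0.32 ± 0.24), Lockd and Gm10076. 2010320M18Rik, which starts 102 bp from Pik3r2 on the other strand, was at 26.7, 28.2 and 26.5 CPM with G786-1089 and at 31.9, 35.2 and 24.8 CPM with DMSO, and Pik3r2 was at -0.07 ± 0.15. Few lincRNAs were thus measured both precisely and close to 0, the median SE over the 61 being 0.32 on the log2 scale.

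Of the 49 lincRNAs that reached the minimum in part of both groups, 3 were lower and none was higher in edgeR at an adjusted p under 0.05. This was 6.12% lower and 0% higher, beside 7.8% and 6.98% of all genes tested. At an unadjusted p under 0.05 were 9 of the 49, and 4238 of the 15082 genes tested. DESeq2 called 3 higher and 6 lower, beside 4276 of 23783 genes in either direction. With limma on log2(FPKM + 1) above an FPKM of 1, 3 were higher and 7 lower, beside 3027 of 10633 genes called. The membership of the 49 was shaped by their level in each group, so these shares are not read as a result. Gm48558 (chr12:15842758-15850625) was at 2.57, 3.39 and 3.26 CPM with G786-1089 and at 34.4, 40.6 and 38.8 CPM with DMSO, a 12.3-fold difference at -3.62 ± 0.23 on the log2 scale (SE, edgeR adjusted p = 0.00033). The neighbour on its strand, Trib2, a pseudokinase gene 25836 bp away, was at -2.16 ± 0.36 (edgeR adjusted p = 0.0105). Gm28578 (-2.50 ± 0.58) and D130017N08Rik (-1.59 ± 0.41) were the other called ones, and without 1 library 1 to 3 of the 49 were lower. All 3 reached 200 counts in every DMSO library and not in every G786-1089 library. They thus met the minimum through the group where they were higher, and their p-values are a description and no support for a difference. With the letter block only Gm48558 of these 3 passed, the adjusted p of Gm28578 being 0.0924 and that of D130017N08Rik 0.116. 5430431A17Rik was at 25.9, 20.2 and 17.04 CPM with G786-1089 and at 4.08, 5.65 and 0.626 CPM with DMSO, without passing (2.61 ± 0.73, SE, edgeR adjusted p = 0.0613).

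The 12 lincRNAs at 200 counts under 1 treatment only were selected by a rule that reads the same contrast, and their values are given as a description. 9 came in through G786-1089 and 3 through DMSO. The widest gap was at 2010320O07Rik (chr18:38209772-38229145), which spans part of Pcdh1 on the other strand without shared exon bases. It had 2098 counts in the treated libraries together and 2 counts in the controls, a ratio of 722 with an exact 95% interval of 200 to 5967 that covers counting error only. Counted as read pairs, 1049 against 1, the interval was 129 to 28550. Both intervals describe a lincRNA chosen on this contrast and test nothing. In CPM it was at 7.06, 10.4 and 6.11 with G786-1089 and at 0, 0.031 and 0 with DMSO. Pcdh1 was at 3.10 ± 1.43 (edgeR adjusted p = 0.217).

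Gm45847 (chr7:123031415-123068305) was at 10.8, 21.5 and 11.0 CPM with G786-1089 and at 0.296, 0.139 and 0.166 CPM with DMSO, and the groups were far apart. It shared 12.7% of its exon bases with Gm45846 on the same strand. Gm16973 was at 12.9, 7.67 and 6.86 CPM against 0.904, 0.677 and 0.515 CPM, and shared 15.9% of its exon bases with Mphosph8 on the other strand, a gene at 0.64 ± 0.13 (edgeR adjusted p = 0.0219). AC160336.1, whose single exon covers 93147 bp and overlaps other gene models, was at 8.48, 8.97 and 9.56 CPM against 1.22, 1.03 and 1.01 CPM. Ftx, an X-linked activator of Xist and the host of the miR-374b and miR-421 sequences printed above, was at 3.73, 5.37 and 5.34 CPM against 0.871, 1.88 and 1.55 CPM, and shared 10.3% of its exon bases with other genes. Gm49797, A430073D23Rik and Gm36738 were at log2 fold changes of 1.47, 1.30 and 0.92. Of these, Gm49797 matched Cd2ap over 64.2% of its transcript, so its counts are uncertain.

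Through DMSO came A930006I01Rik, at 0.348, 0 and 0.323 CPM with G786-1089 and at 3.47, 6.76 and 4.05 CPM with DMSO, 2310074N15Rik, and Gm44786 of the chromosome 8 group. 2310074N15Rik was at 0.294, 0.240 and 1.22 CPM with G786-1089 and at 8.56, 10.9 and 11.8 CPM with DMSO. It starts 54 bp from Tmub1 on the other strand, and Tmub1 was higher (1.43 ± 0.30, edgeR adjusted p = 0.0219). Bc1, a short RNA best known from neurons, reached the minimum with G786-1089 only and yet overlapped between groups, at 3.62, 2.07 and 3.37 CPM against 2.47, 2.69 and 2.76 CPM. It matched Elp6 over 60.1% of its length.

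**Figure D3:**
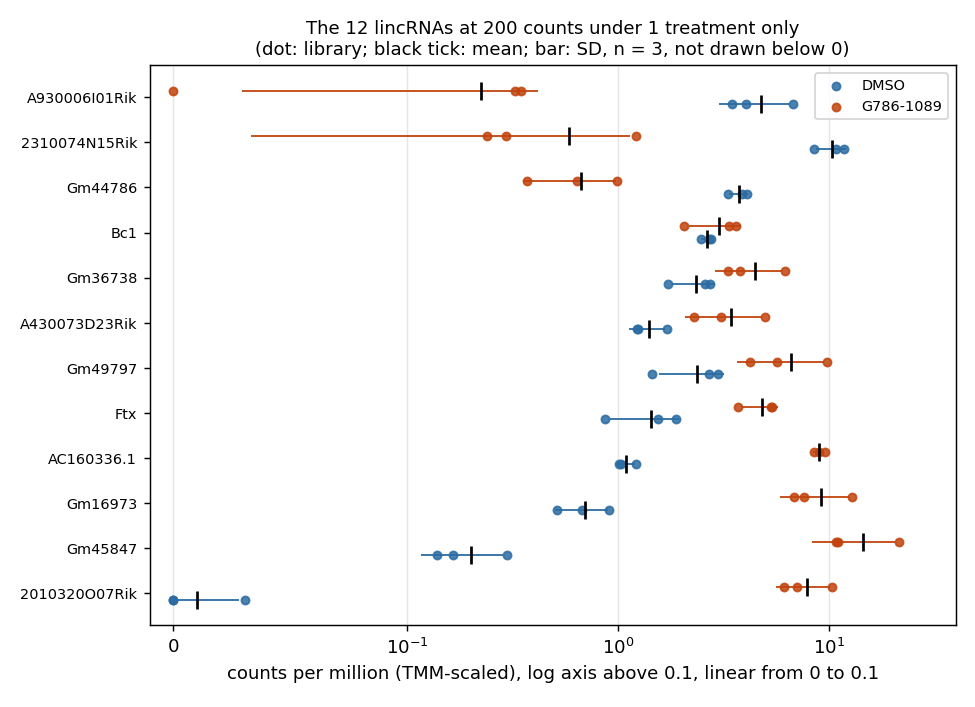
The 12 lincRNAs that reached 200 counts in the 3 libraries of 1 treatment and in none of the other. The x axis gives TMM-scaled CPM, log above 0.1 and linear from 0 to 0.1. Each dot is 1 library (blue DMSO, red G786-1089), the black tick the mean and the bar the SD (n = 3). The dots of the treatments lie apart in all but Bc1, by the most in 2010320O07Rik and Gm45847.

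At the edge of the rule, A430073D23Rik lay just inside with 200 as the third highest count and Gm26754 with 202, while 1700096K18Rik with 194 and 4632411P08Rik with 195 were just outside. Gm26754 (0.00 ± 0.52) also matched another member, Gm48168, over 72.4% of its transcript.

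Since lincRNAs often share regulation with a neighbour, each was set beside its nearest protein-coding gene. For 68 of the 122 that gene lay within 10 kb, and for 85 it was itself tested. Over these 85 pairs the log2 fold changes of lincRNA and neighbour had a Pearson r of 0.37 and a Spearman rho of 0.30, and 51 pairs had the same sign. Without the class at the minimum under 1 treatment only, 78 pairs were left with r of 0.33, rho of 0.24 and 45 pairs of the same sign. With 200 counts of the lincRNA in all 6 libraries there were 43 pairs, with r of 0.47, rho of 0.42 and 28 pairs of the same sign. This is across genes of the same libraries, which are not independent, and some pairs share exon bases. 28 lincRNAs started within 1000 bp of a protein-coding start on the other strand. Of the 27 with a tested partner, 17 had the sign of the partner, with r of 0.11 and rho of 0.37, and 4 partners passed the test. This was 14.8% of the partners, beside 14.8% of all genes tested in either direction.

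These 4 were Tmub1 (above), Irx2, Pop7 (-0.71, beside 9130604C24Rik) and Atp5b. Irx2, a transcription factor of α cells, starts 256 bp from Gm20554 and was at -0.64 ± 0.15 (edgeR adjusted p = 0.032), while Gm20554 was at 8.46, 2.58 and 13.0 CPM with G786-1089 and at 16.8, 15.5 and 12.5 CPM with DMSO, with overlapping groups. Atp5b, a subunit of the mitochondrial ATP synthase, was at -0.46 ± 0.04 (edgeR adjusted p = 0.00106), and the lincRNA at its start, Gm47438, at 1.20 ± 0.57 (edgeR adjusted p = 0.228). Among more distant neighbours, Hes1, a Notch target, rose (1.23 ± 0.23, edgeR adjusted p = 0.0164) while 4632428C04Rik was at -1.01 ± 0.48 (edgeR adjusted p = 0.231). Of the 22 called lincRNAs, 1 had a shared start, 1110006O24Rik beside Rab35 (-0.80 ± 0.72, edgeR adjusted p = 0.534).

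**Figure D4:**
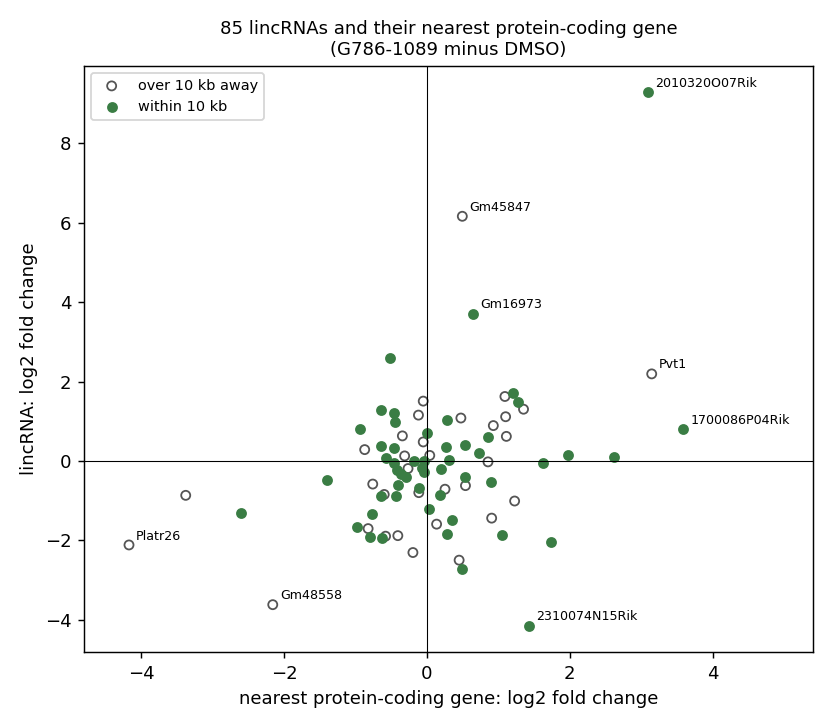
The 85 lincRNAs with a tested nearest protein-coding gene. The x axis gives the log2 fold change of the protein-coding gene and the y axis that of the lincRNA (both G786-1089 minus DMSO). Filled points lie within 10 kb of each other and open points farther apart. Platr26 and Gm48558 with their neighbours lie low on both axes, while 2310074N15Rik lies low beside a higher neighbour, and 51 of the 85 points share their sign.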

How the data were processed

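The members and the lists of genes named here were chosen with earlier results of these data known. Per the labels and the study's methods, RNA of αTC1 cells was amplified by Smart-seq2, which keeps no strand, and made into Nextera XT libraries. The authors aligned reads to GRCm38 with STAR (2.7.9a in the submitters' processing notes), counted them over Ensembl exons without regard to strand, and deposited raw counts per gene and FPKM. Among deposited counts of 1 to 10, 78.1% were even, as when both mates of a pair are counted, so counts overstate independent fragments. The depth ran from 59070705 to 94747943 counts per library.

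Counts were tested with edgeR 4.0.16 (glmQLFit and glmQLFTest, TMM scaling, low genes removed by filterByExpr at min.count 10 and min.total.count 15, 3 libraries against 3) and adjusted by the Benjamini-Hochberg method over 15082 genes. The deposited FPKM were used for levels and, with limma 3.58.1 on log2(FPKM + 1) or log2(FPKM + 0.1), as alternatives. DESeq2 1.42.0 was another alternative. SE is the log2 fold change over the root of the F statistic. Scripts were tested on simulated data. Exons, neighbours and snoRNAs came from GENCODE vM21 (121 of 122 lincRNAs at the coordinates of the deposited table), copies from blastn 2.17.0 over all transcripts (95% identity, hits of 100 bp or more), and promoters and microRNAs from RefSeq.

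Named are the 8 largest called increases and decreases, the 5 highest FPKM, the 4 changes nearest 0 with an SE under 0.25, known lincRNAs, up to 8 of each direction at the minimum under 1 treatment only, and the rows next to the minimum. Others named for a shared sequence, a neighbour or a class total were chosen after their values were seen. A further α cell marker is not reported here.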

Additional observations from a re-analysis of the deposited data

How the results depend on the processing

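For the 61 lincRNAs with 200 counts in all libraries, the lower calls stayed within 1.5 times of 14 under each alternative (10 to 19, DESeq2 giving the most), leaving out 1 library included (10 to 13). The 8 higher calls became 4 when every gene with at least 1 count in any library was tested, and 1 to 4 without 1 library. With a replicate block by column letter they became 3, and the lower calls 11. The columns carry letters and the labels numbers, and same-letter libraries did not deviate together (correlations of 0.0151, 0.0027 and 0.0251), so the values do not show that letters pair the samples, while the study says that the samples of a replicate were handled together. Of the 22 calls 8 no longer passed with this block, while the calls over all genes tested went from 2230 to 1232. The number of lincRNAs was 61 with 200 counts required in all 6 libraries and 185 with a minimum of 100.

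Of the 37 named lincRNAs, 3 changed sign under an alternative, all near 0. 2010320M18Rik became 0.0277 with library size only, Oip5os1 ranged from -0.29 to 0.34 without 1 library, and Gm26754 from -0.25 to 0.28 without 1 library and was -0.0005 with RLE size factors. Over the 37 and the 9 other fits, 20 values no longer passed and 1 newly passed. Without 1 library 48 no longer passed. The limma fit with no minimum used rows with any FPKM above 0.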
